A study of Mus musculus with 6 samples.

Results

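The 34 genes described here encode the steps of glucose breakdown, the pentose phosphate branch and the regulators and targets of hypoxia-inducible factor 1 (HIF-1). They were chosen by symbol from the 55335 Ensembl genes of a count table of RNA from CD11b+ cells, the myeloid fraction sorted from mouse spleen. The symbols matched 35 rows, because a neighbouring gene model (ENSMUSG00000114515) also carries the name Aldoa. That row held 0 to 7 counts per library and was left out. All 34 genes were among the 14849 that passed the filter on low counts. The cells came from WT mice in 2 groups of 3 libraries, one after myocardial infarction (MI) and one after myocardial infarction plus renal denervation, which interrupts the sympathetic nerves of the kidney (MI+RDN). Both groups carry the infarct, and no uninjured group is among the samples. The labels give no strain, sex, age or interval after infarction. They do not say whether the MI mice had a sham denervation, or whether a library held 1 mouse or a pool. The series calls the libraries biological replicates, and p-values measure the spread between them. The comparison asks how renal denervation alters these cells after an infarct, and the genes here address their sugar metabolism.

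Glycolysis takes up glucose, traps it by phosphorylation, splits it into trioses and turns these into pyruvate, most of which a glycolytic cell reduces to lactate and exports. The pentose phosphate pathway branches off at glucose 6-phosphate and yields NADPH, which neutrophils spend on the respiratory burst, and pentoses for nucleotides. HIF-1 is held low in oxygen by prolyl hydroxylases that mark its alpha subunit for degradation, and when stable it activates many genes of glycolysis. Neutrophils have few mitochondria and live largely on glycolysis, while resting lymphocytes and dendritic cells depend more on respiration.

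Most of the 34 genes stood higher in MI+RDN, by modest amounts, and none passed the test over all genes. By edgeR's quasi-likelihood test with Benjamini-Hochberg adjustment at 0.05, 0 of 34 were called higher and 0 lower, where 0.296% of all genes tested were called higher and 0.714% lower. The lowest adjusted p was 0.0539, for Ldha. At an unadjusted p under 0.05, 19 were higher and 1 was lower, against 9.83% and 10.1% of all genes. In 18 genes every MI+RDN library lay above every MI library, and in 1 every MI+RDN library lay below, against 12.4% and 13.7% of all genes. A positive log2 fold change was found in 29 genes, against 51% of all genes. The median log2 fold change was 0.36, beside 0.0080 for all genes tested. It was 0.22 when libraries were scaled by their totals alone, where the median of all genes was -0.13. Under that scaling the log2 fold changes of Hk1, Tpi1, Eno1 and Taldo1 were 0.21, 0.19, 0.16 and 0.20. The DESeq2 Wald test, an alternative, called 13 of the 34 higher and 0 lower, where it called 7.55% of all genes, 3.62% higher and 3.93% lower. Limma-voom called 0 of the 34 and 0.748% of all genes. Summed over the 34 genes, the level was 8734, 9137 and 7484 CPM (counts scaled to a common library size after TMM adjustment) in MI replicates 1 to 3 and 11447, 12262 and 11087 CPM in MI+RDN replicates 1 to 3. The summed level of the lowest MI+RDN library was thus above that of the highest MI library.

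**Figure D1:**
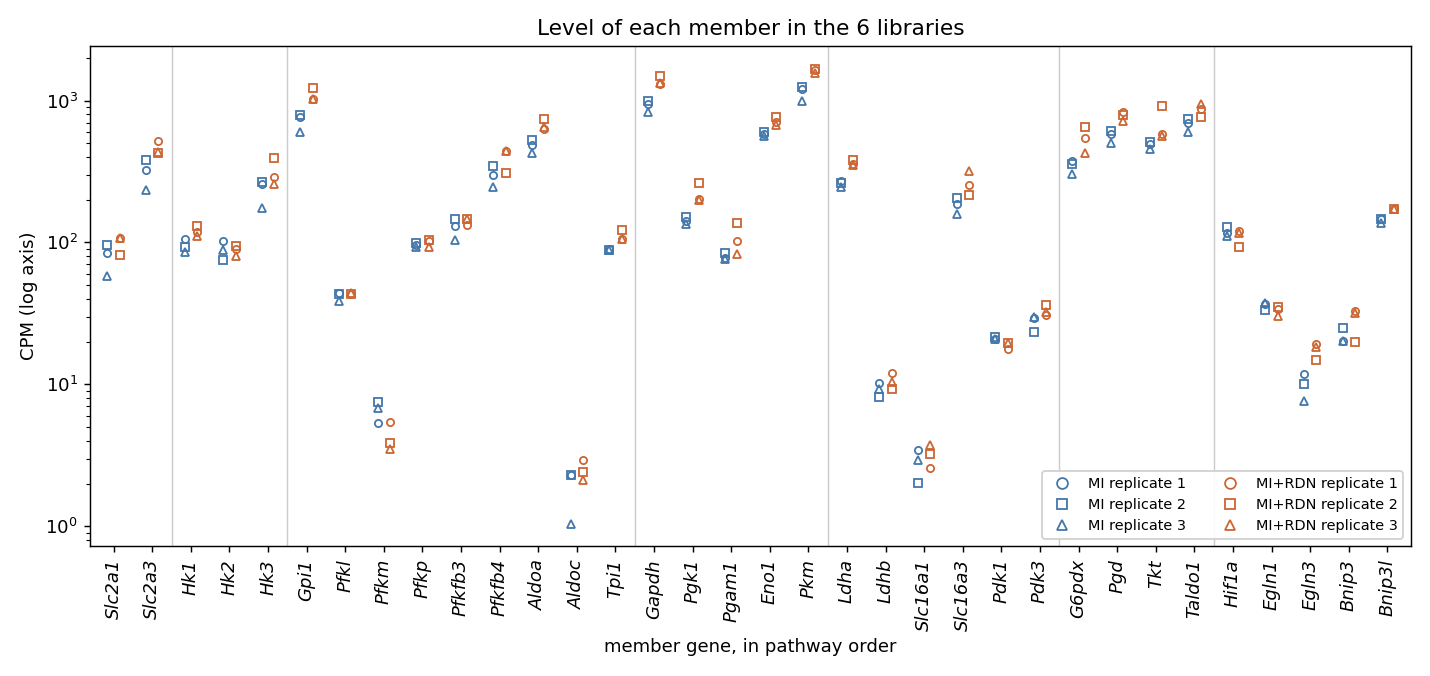
Level of each of the 34 genes in CPM on a log axis, by pathway step (grey lines part the steps), with MI libraries in blue and MI+RDN libraries in orange and the marker shape giving the replicate. The orange points lie above the blue in 18 genes, among them the enzymes from Gapdh to Ldha other than Pgam1, while Hk2, Pfkl, Pfkp and Hif1a overlap.

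**Figure D2:**
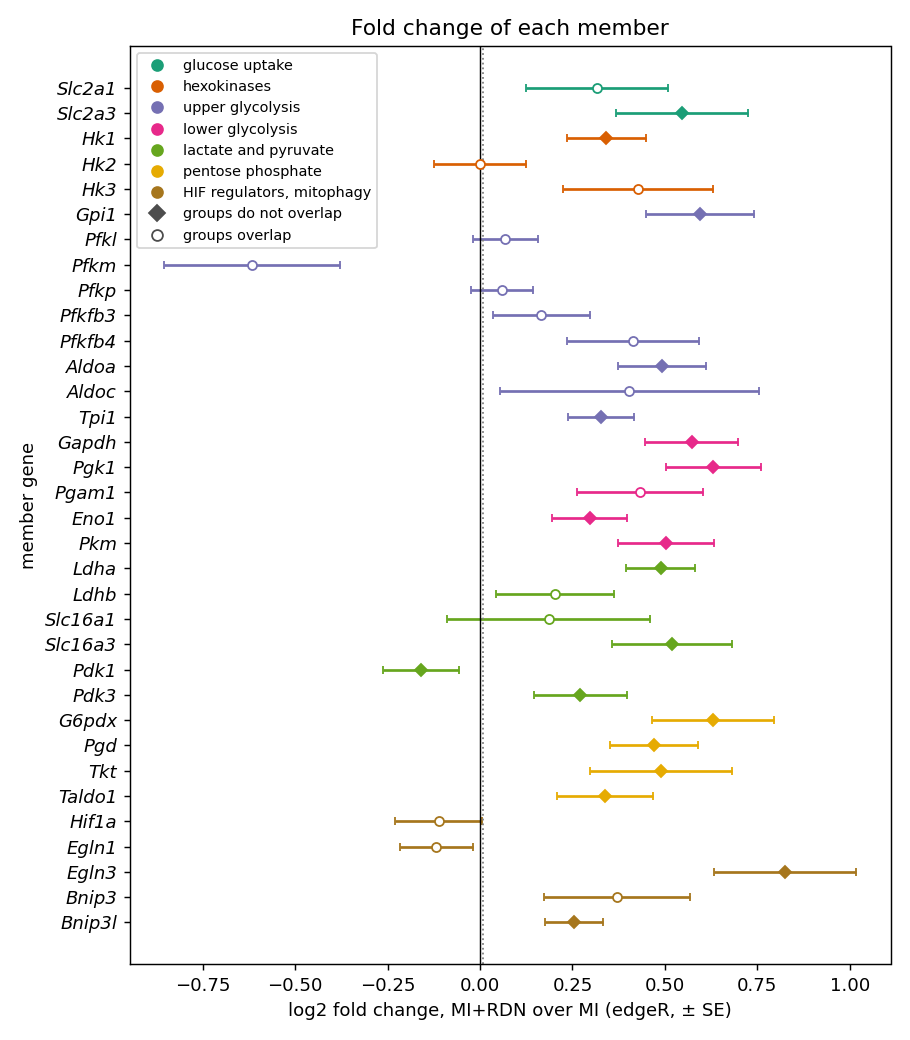
Log2 fold change of MI+RDN over MI for each gene with its standard error (edgeR), coloured by step; filled diamonds mark genes whose groups did not overlap and the dotted line is the median of all genes tested. The lower glycolytic and pentose phosphate genes lie between 0.30 and 0.63, Egln3 lies farthest right at 0.83 and Pfkm farthest left at -0.62.

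Markers of cell types in the sorted fraction also differed between the groups. Whether a type had fewer cells or less RNA per cell cannot be told apart in these bulk samples. Over all genes tested, 12.4% were higher and 13.7% lower with no overlap between the groups. All 12 neutrophil markers had positive fold changes, 2 of them past the threshold (Ly6g and Retnlg). In 6 of them the groups did not overlap, and in the other 6 (Cxcr2, Csf3r, Ngp, Camp, Ltf and Lcn2) they did. Their summed level was 15689 to 24608.5 CPM in MI and 28417 to 51993 CPM in MI+RDN for the 12 markers. None of the 12 was at 0 in any library. Their median log2 fold change was 1.0003, above the 0.36 of the metabolic genes. The 8 B cell markers were lower with no overlap, none past the threshold, at 448 to 690 CPM summed in MI and 228 to 368 CPM in MI+RDN. The 8 conventional DC2 markers were at 431 to 657 CPM summed in MI and 213 to 240 CPM in MI+RDN, with 5 past the threshold and all lower. The 8 T cell markers were at 75.5 to 95.2 CPM and 41.9 to 59.2 CPM, with 1 past the threshold (Cd3d, lower). All markers of these 4 lists were above 0 in every library. Of 7 erythroid markers tested 5 were lower with no overlap, none past the threshold, with a median log2 fold change of -1.26. The sum over the 8 erythroid markers listed was 387 to 777 CPM in MI and 173 to 246 CPM in MI+RDN. Red pulp macrophage markers were lower with no overlap in 5 of 8, at 1181 to 1309 CPM and 974 to 1297 CPM summed, with none past the threshold. The same held for 4 of 6 cDC1 markers, at 32.8 to 48.1 CPM and 21.4 to 26.8 CPM summed, and for 3 of 5 plasmacytoid DC markers tested. The sum over the 6 plasmacytoid DC markers listed was 118 to 122 CPM in MI and 97.0 to 120.2 CPM in MI+RDN. The 8 Ly6C-high monocyte markers overlapped in sum, at 7924 to 8903 CPM in MI and 7087 to 9859 CPM in MI+RDN. Of them 5 had positive and 3 negative fold changes (Ccr2, F13a1 and Fn1), with 1 past the threshold (Ly6c2, higher). The 8 Ly6C-low monocyte markers also overlapped in sum, with 1 past the threshold (Pglyrp1, higher) and 2 lower with no overlap (Cx3cr1 and Treml4). Fold changes were positive in 3 and negative in 5 NK cell markers, and positive in 2 and negative in 3 platelet markers tested. None of the NK cell and platelet markers passed. Itgam, which encodes CD11b, stood at 1086, 1299.9 and 1010.5 CPM in MI replicates 1 to 3 and 1665, 1637 and 1488 CPM in MI+RDN replicates 1 to 3. It belongs to a list of 8 general myeloid genes, all with positive fold changes and none past the threshold. In 6 of these 8 the groups did not overlap, and in 2 they did. The median log2 fold change of the 8 was 0.31, beside the 0.36 of the metabolic genes. Totals per library ran from 21663440 to 24677865 counts for MI and from 24634555 to 28013900 for MI+RDN. Over all genes tested, 44 were called higher and 106 lower, or 62 and 413 without scaling factors. The part of cell composition in the values of the metabolic genes was not tested.

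**Figure D3:**
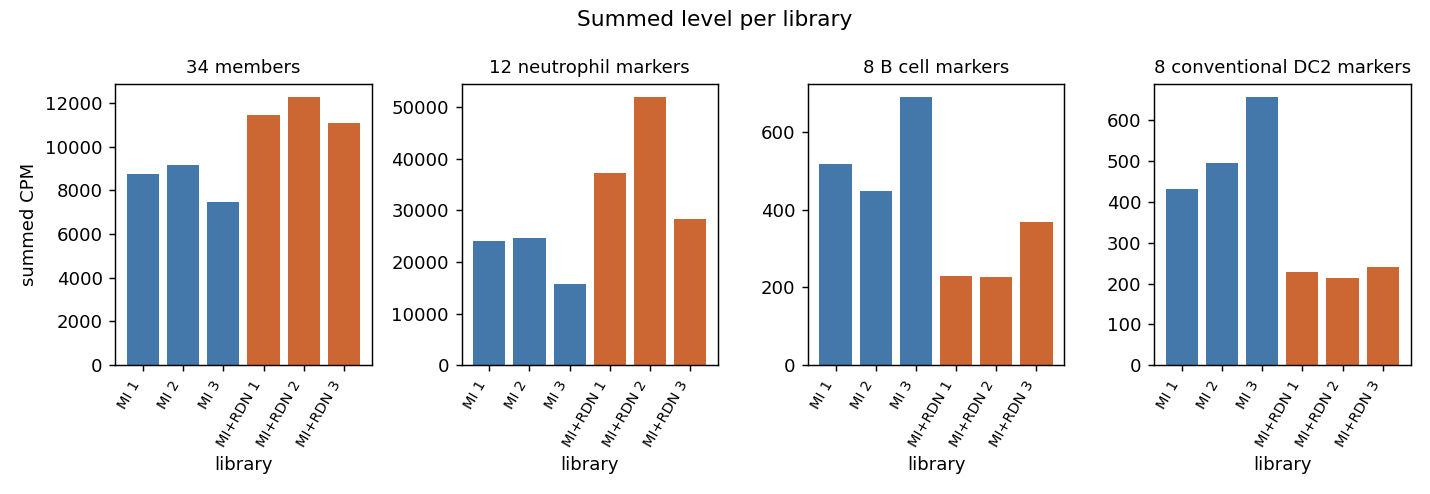
Summed CPM per library of the 34 metabolic genes and of the neutrophil, B cell and conventional DC2 markers, each panel with its own axis from 0; blue bars are MI and orange bars MI+RDN. The metabolic and neutrophil sums are highest in MI+RDN replicate 2 and lowest in MI replicate 3, where the B cell and DC2 sums are highest.

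Promoter sequences from RefSeq (GRCm38.p6, 250 bases before to 50 after a start) were found for 32 of the 34 genes, in 46 windows, some of which overlap. Bnip3l and Slc2a3 had no entry. The submitters' processing notes name another build, GRCm39, so no value of the count table is placed on these windows. HIF-1 binds a core written ACGTG or GCGTG. Either core, on either strand, was present in 38 of 46 windows (82.6%), against 43.8% of all 32851 windows of this length, and ACGTG in 24 (52.2%) against 19.6%. The windows of these genes were richer in CG dinucleotides, with a median of 20 against 7, and in G and C, with 61% against 52.7%, and no allowance was made for that. Gpi1 and Tpi1, both higher in every MI+RDN library, held neither core. Shown here, each on the strand of its gene, are the windows of Ldha (chr7:46845554-46845853, plus strand) and Pgk1 (chrX:106186850-106187149, plus strand), which had the lowest p of the 34, of Egln3 (chr12:54203825-54204124, minus strand), which had the largest fold change, and of Pdk1 (chr2:71872974-71873273, plus strand), a textbook HIF-1 target that was not higher. Capitals mark the cores on either strand, and CACGTG, which is also the E-box and reads the same on both strands, was counted on each.
Ldha: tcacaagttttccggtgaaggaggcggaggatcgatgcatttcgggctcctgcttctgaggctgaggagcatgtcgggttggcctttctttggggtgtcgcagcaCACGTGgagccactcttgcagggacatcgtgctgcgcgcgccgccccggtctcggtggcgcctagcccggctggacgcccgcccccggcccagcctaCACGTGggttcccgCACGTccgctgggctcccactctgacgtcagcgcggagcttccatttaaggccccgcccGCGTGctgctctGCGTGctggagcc
Pgk1: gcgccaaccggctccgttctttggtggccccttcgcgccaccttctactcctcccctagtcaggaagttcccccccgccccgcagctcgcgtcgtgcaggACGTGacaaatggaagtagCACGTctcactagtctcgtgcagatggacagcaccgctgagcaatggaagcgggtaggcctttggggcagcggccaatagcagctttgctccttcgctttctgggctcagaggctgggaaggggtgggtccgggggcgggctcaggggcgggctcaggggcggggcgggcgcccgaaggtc
Egln3: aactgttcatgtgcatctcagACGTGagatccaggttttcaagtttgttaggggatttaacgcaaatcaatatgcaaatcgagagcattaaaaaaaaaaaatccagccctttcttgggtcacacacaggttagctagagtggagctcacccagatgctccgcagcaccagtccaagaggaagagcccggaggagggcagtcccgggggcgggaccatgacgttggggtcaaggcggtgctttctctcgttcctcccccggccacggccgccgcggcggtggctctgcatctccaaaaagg
Pdk1: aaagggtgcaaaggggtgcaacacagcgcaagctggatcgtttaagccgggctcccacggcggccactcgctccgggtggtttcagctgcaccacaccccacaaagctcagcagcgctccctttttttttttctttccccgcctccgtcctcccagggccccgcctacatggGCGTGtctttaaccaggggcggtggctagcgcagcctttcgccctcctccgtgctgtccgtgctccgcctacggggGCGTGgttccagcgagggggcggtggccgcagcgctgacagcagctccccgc
The Ldha window shown held CACGTG in 2 places and 7 core matches in all, the Pgk1 window 2 matches, the Egln3 window 1 and the Pdk1 window 2, both GCGTG. A further Ldha window, at another start and not shown, held 2 matches, both GCGTG. A further Pdk1 window held neither core. A match is a run of letters and not a measured binding site.

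Slc2a3 was the more abundant of the glucose transporter RNAs per kilobase in both groups. Slc2a3 (ENSMUSG00000003153) encodes GLUT3, a high-affinity glucose transporter, and stood at 323, 382 and 236 CPM in MI replicates 1 to 3 and 515, 425 and 434 CPM in MI+RDN replicates 1 to 3. Each MI+RDN library was above each MI library, with MI replicate 3 lowest. The groups stood at 314 ± 73.5 CPM (SD, n = 3) for MI against 458 ± 49.5 CPM for MI+RDN, a 1.46-fold difference that did not pass (log2 fold change 0.55 ± 0.18 SE, edgeR adjusted p = 0.151). Slc2a1, which encodes GLUT1, the widely expressed transporter and a HIF-1 target, was at 84.6, 95.3 and 58.3 CPM in the MI libraries and 108, 80.9 and 108 CPM in the MI+RDN libraries. The groups of Slc2a1 overlapped, since MI+RDN replicate 2 lay below 2 of the MI libraries (log2 fold change 0.32, and 0.14 without MI replicate 3).

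Hexokinases, which phosphorylate glucose and so trap it, had log2 fold changes from -0.00024 to 0.43. Hk1 (ENSMUSG00000037012), the housekeeping form bound to mitochondria, stood at 105, 93.1 and 86.3 CPM in MI replicates 1 to 3 and 118, 131 and 112 CPM in MI+RDN replicates 1 to 3. The groups did not overlap, and the 1.27-fold difference did not pass (log2 fold change 0.34 ± 0.11 SE, edgeR adjusted p = 0.138). Hk3, the form most typical of myeloid cells, had the highest level per kilobase of the 3, at 63.6 ± 13.7 CPM per kilobase of exon in MI against 11.1 ± 1.11 for Hk1 and 14.8 ± 2.21 for Hk2 (SD, n = 3). Its groups overlapped, at 259, 267 and 176 CPM in the MI libraries and 291, 395 and 260.2 CPM in the MI+RDN libraries, and its log2 fold change of 0.43 was 0.22 when MI+RDN replicate 2 was left out and 0.26 when MI replicate 3 was. Hk2, the inducible form and a HIF-1 target, was level between the groups, at 88.3 ± 13.2 CPM (SD, n = 3) for MI against 88.3 ± 7.05 CPM for MI+RDN. Its log2 fold change of -0.00024 was 0.0044 with DESeq2's size factors.

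Upper glycolysis held both larger and smaller differences. At an unadjusted p under 0.05, 4 of 9 genes were higher and 1 lower, against 9.83% and 10.1% of all genes. Gpi1 (ENSMUSG00000036427), glucose 6-phosphate isomerase, stood at 762, 795 and 599 CPM in MI replicates 1 to 3 and 1020.1, 1217 and 1018 CPM in MI+RDN replicates 1 to 3. All MI+RDN libraries lay above all MI libraries, a 1.51-fold difference (log2 fold change 0.59 ± 0.15 SE, edgeR adjusted p = 0.0861). Aldoa (ENSMUSG00000030695), the main aldolase, which splits the hexose into trioses, stood at 482, 525 and 429 CPM in MI replicates 1 to 3 and 632, 738 and 649 CPM in MI+RDN replicates 1 to 3. Its groups did not overlap either, with a 1.41-fold difference (log2 fold change 0.49 ± 0.12 SE, edgeR adjusted p = 0.0831). Tpi1 (ENSMUSG00000023456), triosephosphate isomerase, was at 89.8, 87.8 and 88.0 CPM in MI replicates 1 to 3 and 105, 123 and 106 CPM in MI+RDN replicates 1 to 3. The MI libraries of Tpi1 lay close together and below the MI+RDN libraries (log2 fold change 0.33 ± 0.090 SE, edgeR adjusted p = 0.1105).

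Phosphofructokinase-1, the committed step between them, had subunits with small or negative fold changes. Pfkl, the liver subunit, was at 43.8, 43.0 and 38.4 CPM in the MI libraries and 43.6, 43.5 and 44.2 CPM in the MI+RDN libraries. Its groups overlapped, with a log2 fold change of 0.069 that was -0.067 without scaling factors. Pfkp, the platelet subunit, was at 96.1, 99.8 and 92.5 CPM in the MI libraries and 102, 105 and 93.5 CPM in the MI+RDN libraries, also with overlap and with a log2 fold change of 0.060 that was -0.076 without scaling factors. Pfkm (ENSMUSG00000033065), the muscle subunit, stood at 5.32, 7.48 and 6.79 CPM in MI replicates 1 to 3 and 5.46, 3.83 and 3.48 CPM in MI+RDN replicates 1 to 3. It was the gene with the most negative fold change, 1.53-fold lower, and MI+RDN replicate 1 overlapped MI replicate 1 (log2 fold change -0.62 ± 0.24 SE, edgeR adjusted p = 0.207). The bifunctional enzymes Pfkfb3 and Pfkfb4 set the level of the sugar bisphosphate that activates phosphofructokinase-1. Pfkfb4 (ENSMUSG00000025648), a HIF-1 target abundant in neutrophils, stood at 299.6, 347 and 247 CPM in MI replicates 1 to 3 and 442, 307 and 443 CPM in MI+RDN replicates 1 to 3. MI+RDN replicate 2 lay among the MI libraries while the other MI+RDN libraries lay above them (log2 fold change 0.41 ± 0.18 SE, edgeR adjusted p = 0.251). Pfkfb3 was at 126 ± 21.2 CPM (SD, n = 3) for MI against 142 ± 8.33 CPM for MI+RDN, with overlapping groups, and its log2 fold change of 0.17 was 0.041 without MI replicate 3 and 0.034 without scaling factors. Aldoc, the brain-type aldolase, was the lowest of the 34, at 1.05 to 2.92 CPM over the 6 libraries (log2 fold change 0.40, and 0.11 without MI replicate 3).

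Lower glycolysis, from glyceraldehyde 3-phosphate to pyruvate, had all 5 genes higher at an unadjusted p under 0.05, against 9.83% of all genes, and 4 without overlap, against 12.4%, with a median log2 fold change of 0.50. Pgk1 (ENSMUSG00000062070), phosphoglycerate kinase, which makes the first ATP of the pathway and whose promoter is shown above, stood at 141, 152 and 134 CPM in MI replicates 1 to 3 and 202, 262 and 197 CPM in MI+RDN replicates 1 to 3. MI+RDN replicate 2 was highest and the lowest MI+RDN library was above the highest MI library. The groups stood at 142 ± 8.87 CPM (SD, n = 3) for MI against 220.4 ± 36.1 CPM for MI+RDN, a 1.55-fold difference (log2 fold change 0.63 ± 0.13 SE, edgeR adjusted p = 0.0605). Gapdh (ENSMUSG00000057666), which oxidises glyceraldehyde 3-phosphate and is often used as a reference gene, stood at 952, 993 and 825 CPM in MI replicates 1 to 3 and 1307, 1496 and 1319 CPM in MI+RDN replicates 1 to 3. All MI+RDN libraries lay above all MI libraries, 1.49-fold on average (log2 fold change 0.57 ± 0.13 SE, edgeR adjusted p = 0.0690). Gapdh has many processed pseudogenes, and how shared reads were counted is not given in the sources used here, so its level is uncertain.

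Pkm (ENSMUSG00000032294), pyruvate kinase of the M type, was the most abundant of the 34 in CPM, at 1208, 1254 and 994 CPM in MI replicates 1 to 3 and 1651, 1676 and 1571 CPM in MI+RDN replicates 1 to 3. MI replicate 3 was lowest and the groups did not overlap (log2 fold change 0.50 ± 0.13 SE, edgeR adjusted p = 0.0981). Eno1 (ENSMUSG00000063524), enolase, stood at 578, 596 and 564 CPM in MI replicates 1 to 3 and 707, 762 and 668 CPM in MI+RDN replicates 1 to 3. Its difference was 1.23-fold with no overlap (log2 fold change 0.30 ± 0.10 SE, edgeR adjusted p = 0.166), and reads may be shared with the retrogene Eno1b. Pgam1 (ENSMUSG00000011752), phosphoglycerate mutase, stood at 77.9, 84.2 and 76.3 CPM in MI replicates 1 to 3 and 102, 137 and 83.2 CPM in MI+RDN replicates 1 to 3. MI+RDN replicate 3 lay just below MI replicate 2, so the groups overlapped (log2 fold change 0.43 ± 0.17 SE, edgeR adjusted p = 0.212), and the log2 fold change was 0.20 without MI+RDN replicate 2.

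For lactate production and export and the control of pyruvate use, 2 of 6 genes had an unadjusted p under 0.05. Both were higher, against 9.83% of all genes. Ldha (ENSMUSG00000063229), the lactate dehydrogenase subunit that favours lactate, stood at 271, 264 and 244 CPM in MI replicates 1 to 3 and 359.7, 384 and 349 CPM in MI+RDN replicates 1 to 3. The 3 MI+RDN libraries stood at 349 CPM or more, while no MI library exceeded 271 CPM. The groups stood at 259.7 ± 13.7 CPM (SD, n = 3) for MI against 364 ± 17.7 CPM for MI+RDN, a 1.40-fold difference that missed the threshold by a small margin (log2 fold change 0.49 ± 0.092 SE, edgeR adjusted p = 0.0539). When only genes averaging 5 CPM or more were kept, the adjusted p of Ldha by edgeR was 0.0469, and with a replicate left out it was 0.0814 to 0.158. Slc16a3 (ENSMUSG00000025161), which encodes MCT4, the lactate exporter of glycolytic cells, stood at 187, 207 and 158 CPM in MI replicates 1 to 3 and 255, 217 and 321 CPM in MI+RDN replicates 1 to 3. MI+RDN replicate 3 was highest and replicate 2 only just above the MI libraries (log2 fold change 0.52 ± 0.16 SE, edgeR adjusted p = 0.141), and the log2 fold change was 0.34 without MI+RDN replicate 3. Ldhb, the subunit that favours pyruvate, was at 9.19 ± 1.01 CPM (SD, n = 3) for MI against 10.6 ± 1.36 CPM for MI+RDN, with overlapping groups (log2 fold change 0.20, and 0.063 without scaling factors). Slc16a1, which encodes MCT1, was at 2.03 to 3.74 CPM over the 6 libraries (log2 fold change 0.19, 0.048 without scaling factors, 0.0044 when MI replicate 2 was left out and 0.044 when MI+RDN replicate 3 was).

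Pyruvate dehydrogenase kinases, which inhibit pyruvate dehydrogenase and so limit the conversion of pyruvate to acetyl-CoA, had fold changes of opposite sign that did not pass. Pdk1, whose window is shown above, stood at 20.9, 21.6 and 20.9 CPM in MI replicates 1 to 3 and 17.6, 19.5 and 19.7 CPM in MI+RDN replicates 1 to 3. All MI+RDN libraries lay below all MI libraries, by a small amount (log2 fold change -0.16 ± 0.10 SE, edgeR adjusted p = 0.428), and the log2 fold change was -0.30 without scaling factors. Pdk3 was at 29.3, 23.2 and 29.6 CPM in MI replicates 1 to 3 and 30.8, 36.0 and 32.3 CPM in MI+RDN replicates 1 to 3. Its MI+RDN libraries lay above its MI libraries, with MI+RDN replicate 1 close to MI replicate 3 (log2 fold change 0.27 ± 0.13 SE, edgeR adjusted p = 0.281). The log2 fold change of Pdk3 was 0.13 without scaling factors.

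All 4 pentose phosphate genes stood higher in MI+RDN with no overlap, against 12.4% of all genes. Each had an unadjusted p under 0.05, against 9.83% of all genes on the higher side. Their median log2 fold change was 0.48. G6pdx (ENSMUSG00000031400), glucose 6-phosphate dehydrogenase, the entry enzyme that makes NADPH, stood at 377, 359 and 306 CPM in MI replicates 1 to 3 and 540.3, 648 and 425 CPM in MI+RDN replicates 1 to 3. MI+RDN replicate 2 was highest and MI replicate 3 lowest. The groups stood at 347 ± 37.1 CPM (SD, n = 3) for MI against 538 ± 112 CPM for MI+RDN, 1.55-fold apart (log2 fold change 0.63 ± 0.17 SE, edgeR adjusted p = 0.0997). Pgd (ENSMUSG00000028961), the second NADPH-producing enzyme, stood at 578, 609.9 and 502 CPM in MI replicates 1 to 3 and 833, 791 and 717 CPM in MI+RDN replicates 1 to 3. Its lowest MI+RDN library was above its highest MI library (log2 fold change 0.47 ± 0.12 SE, edgeR adjusted p = 0.0919).

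In the non-oxidative branch, Tkt (ENSMUSG00000021957), transketolase, stood at 493, 513 and 452 CPM in MI replicates 1 to 3 and 578, 909 and 561 CPM in MI+RDN replicates 1 to 3. MI+RDN replicate 2 stood far above the other MI+RDN libraries, which lay only a little above MI (log2 fold change 0.49 ± 0.19 SE, edgeR adjusted p = 0.210). Without that library the log2 fold change of Tkt was 0.21. Taldo1 (ENSMUSG00000025503), transaldolase, stood at 692, 741 and 602 CPM in MI replicates 1 to 3 and 867, 764 and 942 CPM in MI+RDN replicates 1 to 3. Here MI+RDN replicate 2 was the lowest of its group and only just above MI replicate 2 (log2 fold change 0.34 ± 0.13 SE, edgeR adjusted p = 0.204). Per kilobase Taldo1 had the highest level of all 34 genes in MI, at 312 ± 32.5 CPM per kilobase, followed by Pkm at 230.4 ± 27.8 and Gapdh at 223 ± 21.1 (SD, n = 3). The levels of Pkm and Gapdh do not differ beyond their spread.

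Of the 5 HIF regulators and targets 2 had an unadjusted p under 0.05, both higher, against 9.83% of all genes. The step had a median log2 fold change of 0.25. Egln3 had the largest fold change of the 34, while those of Hif1a and Egln1 were negative, at -0.11 and -0.12, or -0.25 and -0.26 without scaling factors. Egln3 (ENSMUSG00000035105) encodes the prolyl hydroxylase PHD3, itself a HIF-1 target and known for its part in neutrophil survival in low oxygen, and stood at 11.9, 10.05 and 7.62 CPM in MI replicates 1 to 3 and 19.2, 14.8 and 18.4 CPM in MI+RDN replicates 1 to 3. Each MI+RDN library was above each MI library, with MI replicate 3 lowest. The groups stood at 9.86 ± 2.16 CPM (SD, n = 3) for MI against 17.5 ± 2.35 CPM for MI+RDN, a 1.77-fold difference (log2 fold change 0.83 ± 0.19 SE, edgeR adjusted p = 0.0771). Hif1a, the oxygen-regulated subunit, which is controlled mainly as protein, stood at 116, 128 and 111 CPM in the MI libraries and 119.8, 93.3 and 116 CPM in the MI+RDN libraries. The groups of Hif1a overlapped and its log2 fold change was -0.025 without MI+RDN replicate 2. Egln1, the main oxygen sensor PHD2, was at 35.9 ± 2.10 CPM (SD, n = 3) for MI against 33.0 ± 2.33 CPM for MI+RDN, also with overlap.

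The mitophagy receptors are HIF-1 targets that tag mitochondria for removal. Bnip3l (ENSMUSG00000022051), which encodes NIX, stood at 147, 147 and 137 CPM in MI replicates 1 to 3 and 171, 172 and 171 CPM in MI+RDN replicates 1 to 3. Its MI+RDN libraries were nearly equal and above all MI libraries, with a difference of 1.19-fold (log2 fold change 0.25 ± 0.079 SE, edgeR adjusted p = 0.138) that was 0.12 on the log2 scale without scaling factors. Bnip3 was at 20.2, 24.9 and 20.2 CPM in the MI libraries and 32.8, 19.9 and 31.6 CPM in the MI+RDN libraries. MI+RDN replicate 2 lay below all MI libraries while the other MI+RDN libraries lay above them (log2 fold change 0.37).

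Libraries of 1 group differed in a pattern that ran through the genes. MI+RDN replicate 2 was the highest MI+RDN library for 19 genes, the lowest for 10 and between the others for 5. Ranked by its level over the mean of the other MI+RDN libraries, it was highest for Tkt (1.60), Pgam1 (1.48), Hk3 (1.43), G6pdx (1.34) and Pgk1 (1.31). It was lowest for Bnip3 (0.619), Pfkfb4 (0.694), Slc2a1 (0.7504), Slc16a3 (0.751), Egln3 (0.786) and Hif1a (0.792). Enzymes were also found on the low side, such as Taldo1 at 0.844, and HIF genes on the high side, such as Egln1 at 1.08. In the same library the neutrophil granule genes Ngp, Ltf, Camp and Lcn2 were high. Made by precursors, they stood 3.72, 3.47, 2.93 and 2.25 times as high as in the mean of the others. The receptor genes Csf3r and Cxcr2, which are high in mature neutrophils, stood at 0.565 and 0.623 of that mean. The remaining neutrophil markers lay between these values. S100a8 stood at 1.78, Ly6g at 1.62, S100a9 at 1.40, Mmp8 at 1.37, Retnlg at 1.22 and Mmp9 at 0.959 of that mean. In MI, replicate 3 was the lowest library for 25 of the 34 genes, and its neutrophil markers were also lowest, with a median deviation of -0.85 log2 units from each marker's mean over the 6 libraries. Without MI+RDN replicate 2, a choice made after seeing the data, 22 genes had no overlap on the higher side, against 21% of all genes, and 17 had an unadjusted p under 0.05 on that side, against 10.5%. Without MI replicate 3 these were 18 against 16.3% and 15 against 6.58%. The median log2 fold change was 0.26 without the former library and 0.29 without the latter. These are single libraries with no test, and the part of neutrophil number or maturity in the pattern was not tested.

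**Figure D4:**
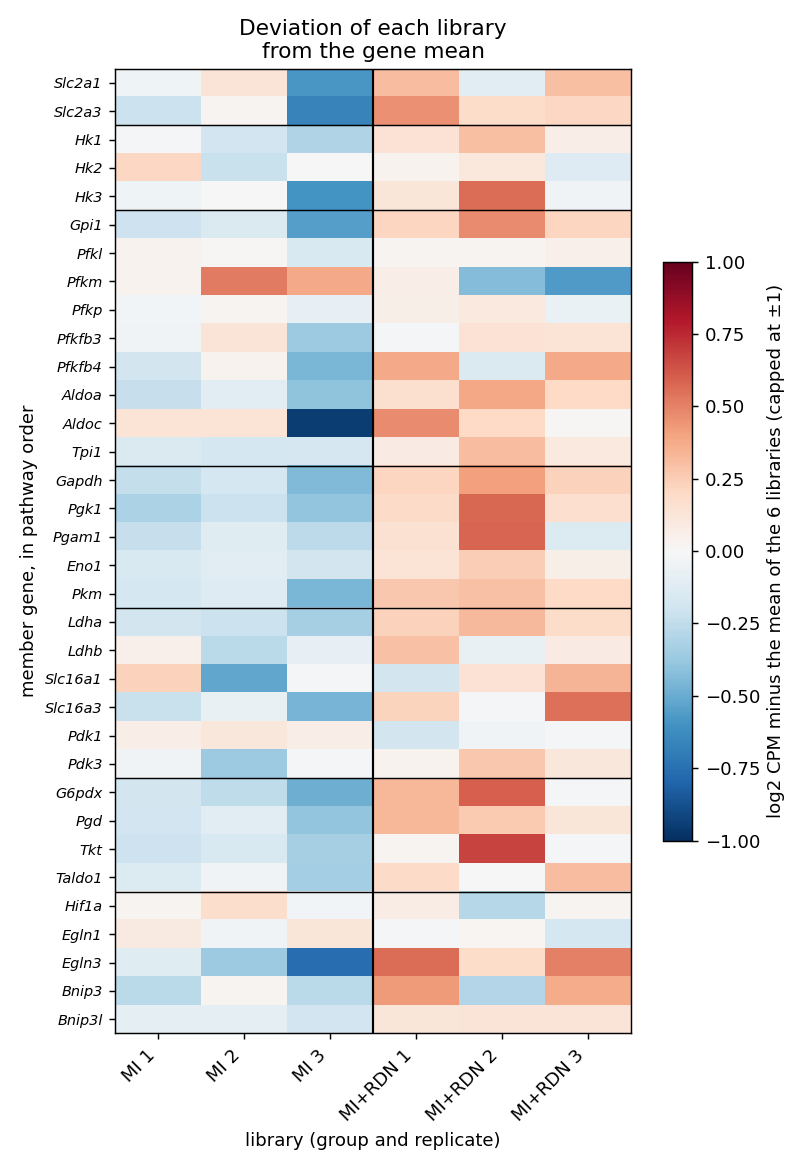
Log2 CPM of each gene minus its mean over the 6 libraries, with genes in pathway order and libraries in columns; red is above the mean and blue below. Blue runs down the column of MI replicate 3, the lowest MI library for 25 genes, while MI+RDN replicate 2 is reddest for Tkt, Pgam1, Pgk1 and G6pdx and blue for Bnip3, Pfkm and Hif1a.

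Shares of paralogs within a family do not depend on library scaling. They were computed from counts per kilobase of exon for 14 genes, within families made only of the genes described here. With 3 libraries against 3 the smallest two-sided exact permutation p is 0.1, so no share could pass 0.05. The groups did not overlap in 4 of the 14 shares. Egln3 made up 30.5, 28.8 and 21.5% in MI replicates 1 to 3 and 43.3, 36.4 and 44.997% in MI+RDN replicates 1 to 3 of Egln1 and Egln3 together. The share was 27.0% ± 4.77 (SD, n = 3) for MI against 41.6% ± 4.54 for MI+RDN, with all MI+RDN libraries above all MI libraries (exact permutation p = 0.1, Benjamini-Hochberg adjusted p = 0.35). Egln2, which encodes PHD1, was not counted in this share. It stood at 15.8 CPM per kilobase in MI and 19.2 in MI+RDN, against 9.98 and 9.19 for Egln1 and 3.70 and 6.56 for Egln3. With Egln2 counted the Egln3 share would be lower in both groups. Pdk3 had the larger share of the pyruvate dehydrogenase kinase pair in both groups, at 79.6% ± 2.58 (SD, n = 3) for MI against 84.1% ± 0.795 for MI+RDN of Pdk1 and Pdk3 (exact permutation p = 0.1, Benjamini-Hochberg adjusted p = 0.35). Among phosphofructokinase-1 subunits Pfkp made up 46.6% ± 0.422 (SD, n = 3) for MI against 48.8% ± 1.48 for MI+RDN and Pfkm 12.7% ± 1.999 (SD, n = 3) for MI against 8.29% ± 1.79 for MI+RDN, and the 2 shares differed in opposite directions with no overlap (each exact permutation p = 0.1, adjusted p = 0.35). Shares in a family add up to the whole, so a lower Pfkm share by itself raises the others, and these are not separate results. The level of Pfkp overlapped between the groups (log2 fold change 0.060). For Pfkm the margin was small, with 10.4% in MI replicate 1 and 10.3% in MI+RDN replicate 1. The remaining 10 shares overlapped. Hk3 made up 70.6% ± 4.89 (SD, n = 3) for MI against 74.5% ± 2.63 for MI+RDN of the hexokinases, so the myeloid form had the largest share in both groups. Slc2a3 made up 65.7% ± 0.694 (SD, n = 3) for MI against 69.2% ± 2.90 for MI+RDN of Slc2a1 and Slc2a3. Slc2a6 was not counted in this share. Ldhb was 6.95% ± 0.727 (SD, n = 3) for MI against 5.79% ± 0.860 for MI+RDN of the lactate dehydrogenase subunits, the rest being Ldha.

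**Figure D5:**
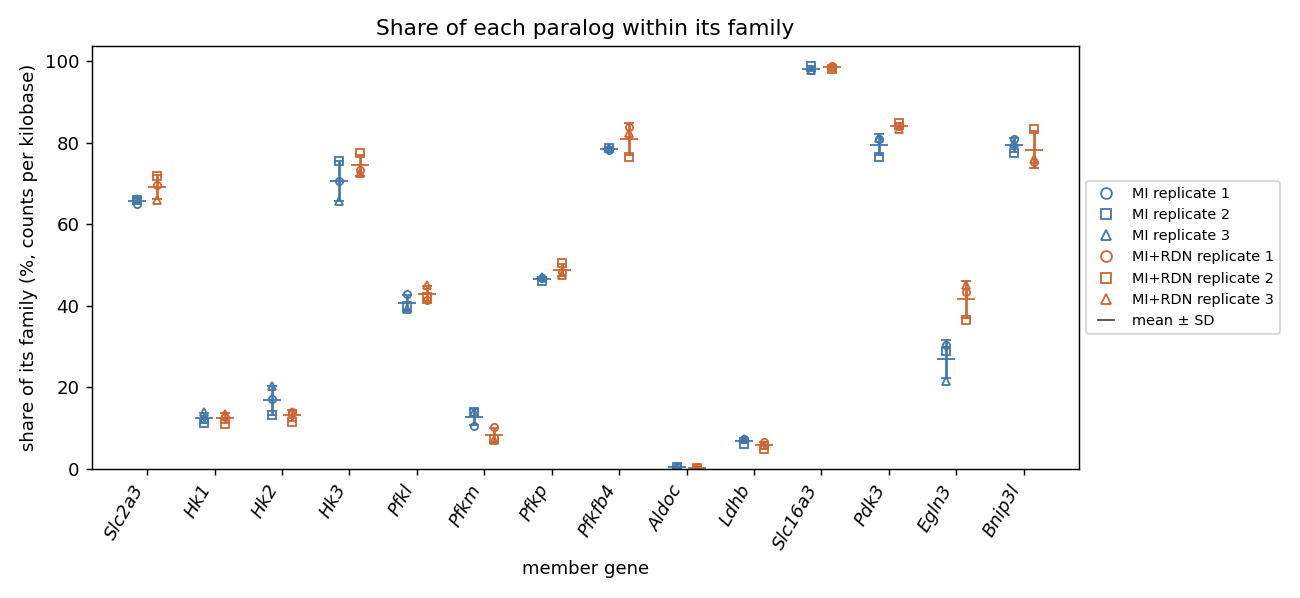
Share of each gene in its paralog family in percent, from counts per kilobase of exon; open symbols are libraries (blue MI, orange MI+RDN, shape by replicate) and bars the mean and SD of 3. Families hold only genes of the 34, so Egln2 and Slc2a6 are not counted. The Egln3 share of Egln1 and Egln3 lies at 27.0% in MI and 41.6% in MI+RDN with no overlap. The hexokinase, aldolase, lactate dehydrogenase and BNIP3 shares overlap.

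Other genes of the same pathways had a median fold change nearer to that of all genes. Of 96 listed, 79 passed the filter on low counts, and 3 (Fbp2, Tktl2 and G6pd2) were at 0 in every library. By edgeR with Benjamini-Hochberg adjustment 0 of the 79 passed, with 10 higher and 9 lower at an unadjusted p under 0.05, shares near the 9.83% and 10.1% of all genes. Their median log2 fold change was 0.12. DESeq2 called 5 higher and 2 lower. Gyg, glycogenin, which primes glycogen, stood at 102, 96.3 and 90.4 CPM in MI replicates 1 to 3 and 139, 189 and 143 CPM in MI+RDN replicates 1 to 3. Its groups did not overlap, and it had the lowest p of the 79 (log2 fold change 0.71 ± 0.13 SE, edgeR adjusted p = 0.0534). Pygb, a glycogen phosphorylase, stood at 43.3 ± 2.10 CPM (SD, n = 3) for MI against 32.2 ± 1.68 CPM for MI+RDN (log2 fold change -0.43 ± 0.091 SE, edgeR adjusted p = 0.0661). Pygl, the more abundant phosphorylase per kilobase, named here after its values were seen, lay the other way with no overlap, at 670.4 ± 123 CPM (SD, n = 3) for MI against 1057 ± 51.7 CPM for MI+RDN (log2 fold change 0.66 ± 0.15 SE, edgeR adjusted p = 0.0771). Pgm2, a phosphoglucomutase, was at 47.2 ± 3.54 CPM (SD, n = 3) for MI against 61.7 ± 1.93 CPM for MI+RDN (log2 fold change 0.39 ± 0.089 SE, edgeR adjusted p = 0.0768), and Eno2, the neuronal enolase, at 0.827 ± 0.0527 CPM (SD, n = 3) for MI against 0.310 ± 0.180 CPM for MI+RDN (log2 fold change -1.42 ± 0.48 SE, edgeR adjusted p = 0.162).

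Of the further genes of pyruvate transport and use, Mpc1, a subunit of the mitochondrial pyruvate carrier, stood at 45.2, 40.0 and 38.5 CPM in MI replicates 1 to 3 and 63.6, 52.2 and 60.9 CPM in MI+RDN replicates 1 to 3. All MI+RDN libraries were above all MI libraries (log2 fold change 0.52 ± 0.11 SE, edgeR adjusted p = 0.0671). Slc16a7, which encodes MCT2, was at 22.9 ± 1.14 CPM (SD, n = 3) for MI against 15.5 ± 3.94 CPM for MI+RDN (log2 fold change -0.56 ± 0.18 SE, edgeR adjusted p = 0.146). Prps2, which turns ribose phosphate into the precursor of nucleotides, was lower, at 29.3 ± 3.13 CPM (SD, n = 3) for MI against 19.8 ± 2.04 CPM for MI+RDN (log2 fold change -0.57 ± 0.13 SE, edgeR adjusted p = 0.0717), while Rpia, ribose 5-phosphate isomerase, had a log2 fold change of 0.25 (edgeR adjusted p = 0.324). Among the further HIF genes Mxi1, a repressor of MYC targets, was at 77.9 ± 10.3 CPM (SD, n = 3) for MI against 102 ± 5.83 CPM for MI+RDN (log2 fold change 0.40 ± 0.11 SE, edgeR adjusted p = 0.118) and Egln2, which encodes PHD1, at 44.3 ± 2.70 CPM (SD, n = 3) for MI against 53.7 ± 3.01 CPM for MI+RDN (log2 fold change 0.28 ± 0.091 SE, edgeR adjusted p = 0.154).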

How the data were processed

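RNA of spleen CD11b+ cells was sequenced from strand-specific libraries, per the labels' protocols. The table deposited by the authors holds counts per Ensembl gene, assumed here to be raw. The submitters' processing notes name FastQC 0.11.2, STAR and GRCm39. Not given in the sources used here are the counting tool, annotation, strand setting and treatment of reads with several matches. Counts were filtered by filterByExpr at its defaults, scaled by TMM and tested with edgeR 4.0.16 (quasi-likelihood F test, R 4.3.3) on all 14849 genes kept, with Benjamini-Hochberg adjustment at 0.05. DESeq2 1.42.0 and limma 3.58.1 (voom) were alternatives. The code was tested on simulated data, where it recovered 58% of 2-fold and 85% of 4-fold changes at the 0.05 threshold. Of its calls there 8.64% were false. Smaller changes were not simulated, and the largest fold change of the 34 genes was 1.77. Libraries held between 21663440 and 28013900 counts, with a common biological coefficient of variation of 20.7%. Exon lengths per gene came from GENCODE vM21, another build, and serve only for levels per kilobase. Members and lists were chosen with earlier results of these data known. Each of the 34 genes is named. Library values are given for those with an unadjusted p under 0.05 and the lowest p of each step. Of the other pathway genes, the 2 with the lowest p per list are named, and Slc2a6 and Pygl besides.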

Additional observations from a re-analysis of the deposited data

How the results depend on the processing

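Of 440 results for the 34 genes under alternatives, 417 kept their direction and their side of the threshold, 9 changed direction and 14 passed only under an alternative. The threshold count of the 34 genes was 0 by edgeR (20 at an unadjusted p under 0.05), 1 with a filter at a mean of 5 CPM (Ldha) and 13 by DESeq2. It was 0 under each other alternative, each replicate left out included. For the other pathway genes it was 0, with 2 without scaling factors, 2 at 5 CPM and 7 by DESeq2. Over all genes, 150 became 475 without scaling factors, 21 without a filter, 289 at 5 CPM and 1121 by DESeq2. With a replicate left out it was 0 to 67, and 0 without MI replicate 3 (2084 at an unadjusted p under 0.05) or MI+RDN replicate 1 (2323). No pairing by replicate number was assumed. Deviations from the group mean correlated at 0.018, -0.065 and 0.064 between same-numbered libraries of the 2 groups. Between libraries of unlike number they correlated at -0.106 to 0.094. With so few libraries these values cannot exclude a pairing. A replicate block gave 87 genes (23 higher, 64 lower) and 0 of the 34. The median log2 fold change of the 34 genes was 0.22 without scaling factors and 0.26 to 0.47 with a replicate left out. Hk2 changed sign, with a log2 fold change of 0.0044 by DESeq2's size factors or test, 0.0069 without a filter or with the block, 0.0071 by voom and -0.10 to 0.11 with a replicate left out (0.045 without MI+RDN replicate 3). Without scaling factors Pfkl was -0.067 and Pfkp -0.076. Of 98 results for paralog shares, 8 changed direction. For Hk1 the difference was 0.312 points without length correction and -0.667 to 0.609 with a replicate left out (positive without MI replicate 3, or without MI+RDN replicate 2). With a replicate left out, that of Aldoc was -0.0765 to 0.0267 and that of Bnip3l -3.80 to 0.273. The cause was not tested. Leaving out a replicate for the counts of genes without overlap (18 to 22) and of unadjusted calls (14 to 18 higher) was chosen after seeing the data. Depth limits Pfkm, Aldoc, Slc16a1 and Ldhb most, the genes with the fewest counts.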
